A study of Mus musculus with 6 samples.

Results

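The genes described here encode 8 transcription factors of skeletal muscle: Myf5, Myod1, Myog and Myf6 of the MyoD family, Mef2a, Mef2c and Mef2d of the Mef2 family, and the homeobox factor Six4. They were taken by gene symbol from a table of 27366 features, with no threshold on any value. The table comes from RNA sequencing of 6 libraries. Each was made at day 4 from satellite cells, which are the resident stem cells of mouse muscle, in a growth culture with serum and basic FGF. In 3 libraries the genotype is labelled Islr knockout and in 3 control, and all 6 share the tissue, the day and the growth culture. Islr is the gene of a secreted leucine-rich repeat protein. The series design adds a sort by flow cytometry on whether cells carried Islr. The sources used here do not give the driver of the deletion, the strain, the age or the number of animals. They also do not say whether replicates are different animals or cultures; a p-value then measures the spread between libraries alone, which may be technical.

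The MyoD family are basic helix-loop-helix proteins. Each pairs with an E protein and binds the E-box, a short DNA motif in the control regions of muscle genes. Myf5 and Myod1 mark the commitment of a satellite cell to the muscle lineage, Myog turns on as myoblasts leave the cell cycle and differentiate, and Myf6 acts late. Mef2 proteins are MADS-box factors that work together with the MyoD family on the same genes, and Six4 acts with Eya partners both upstream of the family and beside it. In bulk libraries, fewer cells that express a gene and less RNA per cell cannot be told apart.

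The control region of Myog brings these 3 kinds of factor together, and its sequence is shown because Myog varied most between libraries among the 8 genes by its SD. The 250 bases before the RefSeq start of Myog lie on GRCm38.p6 at chr1:134289754-134290003 on the plus strand. Capitals mark matches to the E-box CANNTG, to CTATATTTA, which is the Mef2 site known from the mouse Myog promoter, and to TCAGGTTTC, the MEF3 motif bound by Six4.
Myog promoter: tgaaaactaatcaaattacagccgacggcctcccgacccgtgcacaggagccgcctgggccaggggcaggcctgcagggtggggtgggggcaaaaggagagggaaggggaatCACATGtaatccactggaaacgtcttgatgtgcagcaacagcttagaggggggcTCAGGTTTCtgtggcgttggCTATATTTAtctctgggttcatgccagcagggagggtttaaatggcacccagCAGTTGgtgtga
Both strands were searched, and the matches do not overlap. The E-boxes begin 138 and 12 bases before the start, the MEF3 motif 84 bases and the Mef2 site 64 bases before it. In the GENCODE M21 annotation Myog starts earlier than in RefSeq, at 134289989. The end of the window, with the E-box CAGTTG, lies inside the gene there. Of 32851 RefSeq promoter windows of this length, 66.2% held CANNTG, 0.186% held CTATATTTA and 0.387% held TCAGGTTTC. Windows were found for 6 of the 8 genes. A match to TCAGGTTTC also lay in 1 of the 2 windows of Six4, 2 of the 3 windows of Mef2c held CANNTG, and the windows of Myf5, Mef2a and Mef2d held none of the 3 motifs. A match describes the letters of a window and does not show that a factor binds there.

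The libraries held 16456917 to 20124943 reads on genes in the group labelled Islr knockout and 16776805 to 20531276 in the control group. Values below are scaled reads, that is reads divided by the size factor of the library in the deposited table. For Islr itself, the targeted gene, the libraries labelled Islr knockout 1, 2 and 3 had 256.7, 7.381 and 10.88 scaled reads, against 181.1, 12.82 and 1579 in those labelled control 1, 2 and 3. Islr knockout 1 exceeded both control 1 and control 2, and control 2 was about as low as Islr knockout 2 and 3. For Islr, these libraries, Islr knockout 1 and control 2, go against their labels, and the groups are named by their labels throughout. Between the groups, the log2 fold change of Islr was -2.43 ± 2.15 (SE; limma, unadjusted p = 0.305). The span of Islr overlaps Islr2 and Gm47174 on the same strand and 1600029O15Rik on the opposite strand. Overlap of exons was not examined, so reads of these genes may be mixed with those of Islr. The satellite cell and myoblast markers Pax7, Myf5, Myod1, Cdh15, Itga7, Vcam1, Sdc4 and Des had reads in all 6 libraries, while Calcr, a receptor of quiescent satellite cells, and Chrdl2 were at 0 in at least 1. The summed level of the 10 markers ran from 59854 to 131129 scaled reads in the libraries labelled Islr knockout and from 69303 to 138934 in control. Most of this sum came from Des, Itga7 and Myod1, and Des is also among the differentiation genes listed below. Pax7 alone had 1558, 1667 and 1319 scaled reads in Islr knockout 1, 2 and 3, against 1233, 2729 and 1634 in control. The column of control 1 carries a name in which 2 digits are exchanged against its label, and the other 5 columns match theirs.

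Myod1, Myf5 and Six4 kept similar levels in all 6 libraries, whereas Myog, Mef2c and Myf6 differed widely from library to library inside each group. None of the 8 genes passed the test between the groups, and only Myod1 was lower in the library labelled Islr knockout at each of the 3 replicate numbers.

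**Figure D1:**
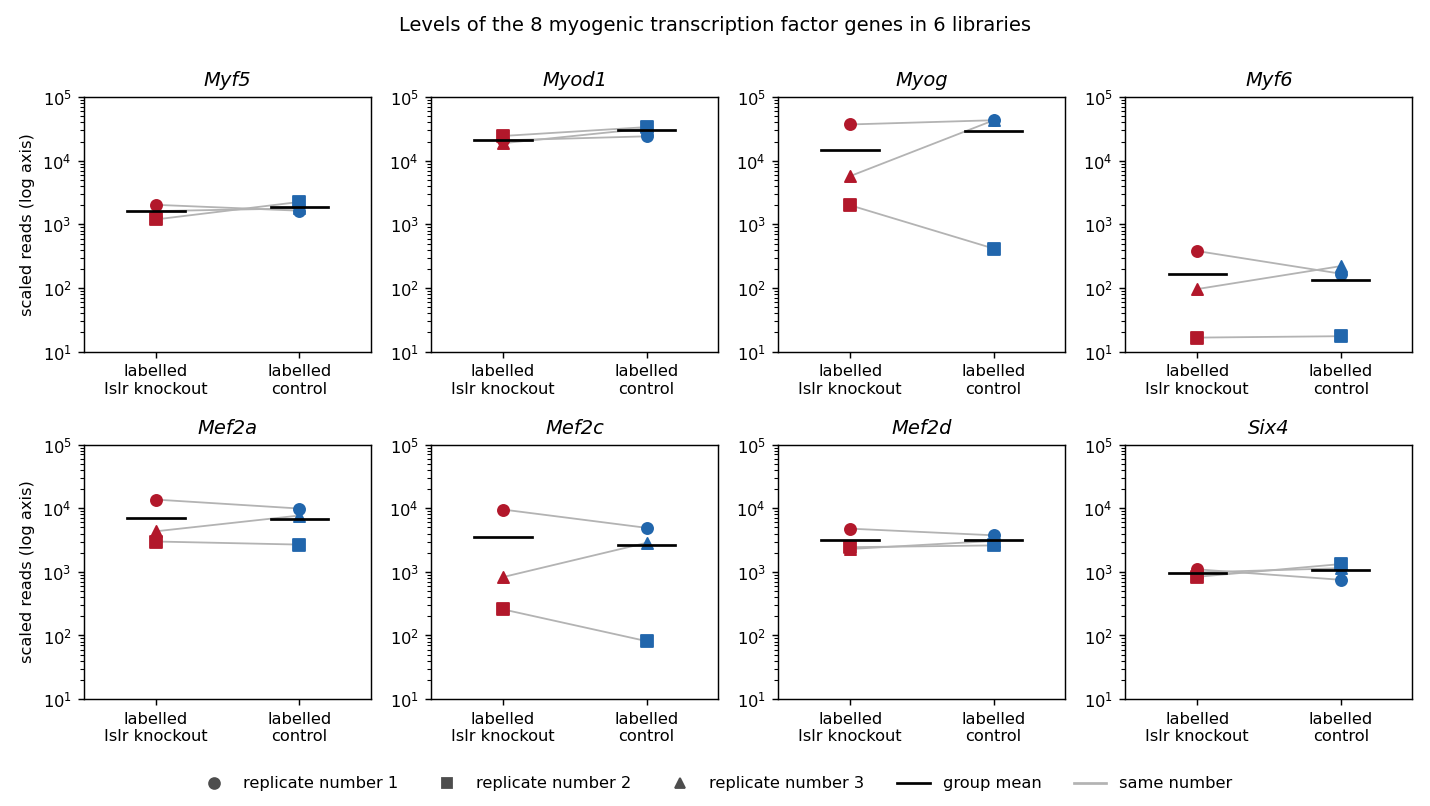
Scaled reads (log axis) of the 8 genes in the libraries labelled Islr knockout (left) and control (right), with 1 point per library, a bar at the group mean and a line between libraries of equal replicate number. Myod1 lies between 18888 and 33818 in all 6 libraries, while Myog runs from 417.2 to 43370 and Mef2c from 81.57 to 9549.

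Of the commitment factors, Myod1 (ENSMUSG00000009471, chromosome 7, 46376474 to 46379099 on GRCm38) was the more abundant per kilobase. It had 20943, 24544 and 18888 scaled reads in the libraries labelled Islr knockout 1, 2 and 3, against 24224, 33818 and 32136 in control 1, 2 and 3. The knockout libraries were lower at each number, but the groups overlapped, since Islr knockout 2 lay just above control 1. The differences were -0.21, -0.46 and -0.77 on the log2(scaled reads + 1) scale at numbers 1, 2 and 3. The group means were 21458 ± 2863 for Islr knockout and 30059 ± 5123 for control (SD, n = 3 each), a log2 fold change of -0.48 ± 0.27 (SE) with a 95% interval from -1.09 to 0.13 (limma, unadjusted p = 0.108, adjusted p = 1.0).

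With the replicate number as a block, the interval of Myod1 ran from -0.92 to -0.04 (limma, unadjusted p = 0.0356, adjusted p = 0.920). An unadjusted p under 0.05 in this blocked fit was reached by 1 of the 8 genes, Myod1, and by 4.59% of the 20344 genes tested. A lower level at all 3 numbers was likewise found in 1 of the 8 genes and in 12.1% of all genes tested. With 8 genes, 1 gene does not set either count apart from its share over all genes. The sums of 2 lists of markers of other cells went the opposite way to Myod1. The summed level of 8 fibro-adipogenic and fibroblast markers came to 3999, 7847 and 7031 scaled reads in Islr knockout 1, 2 and 3, against 3738, 2143 and 4264 in control. The sum of 6 endothelial markers came to 310.3, 1388 and 1255, against 305.5, 617.6 and 420.2 in control. Both sums were higher in the knockout library at each number, though the endothelial sum was nearly a tie at number 1. No marker of either list was at 0 in all libraries. Single markers went both ways at number 1. Pdgfra (83.28 in the knockout library against 91.10), Dcn (103.8 against 152.2) and Cdh5 (110.7 against 138.9) were lower. Postn (1974 against 1746) and Kdr (115.2 against 96.66) were higher. At numbers 2 and 3 every marker was higher except Thy1 at number 3 (241.0 against 248.0) and Dpt. Dpt, with at most 4.444 scaled reads in a library, was lower at each number. The part of these cells in the level of Myod1 was not tested. The immune, Schwann and pericyte lists, whose sums are given with Myog, did not keep 1 direction over the 3 numbers.

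Myf5 (ENSMUSG00000000435, chromosome 10, 107482908 to 107486134) had 2030, 1197 and 1617 scaled reads in the libraries labelled Islr knockout, against 1641, 2254 and 1786 in control. The groups overlapped, and the difference changed sign between numbers, at 0.31, -0.91 and -0.14 (log2). The log2 fold change was -0.25 ± 0.28 (SE), with a 95% interval from -0.88 to 0.38 (limma, adjusted p = 1.0). Six4 (ENSMUSG00000034460, chromosome 12, 73099609 to 73113456) was close to this, with 1096, 836.8 and 980.9 scaled reads in the libraries labelled Islr knockout and 751.0, 1326 and 1142 in control. Its differences at numbers 1, 2 and 3 were 0.55, -0.66 and -0.22, and its interval ran from -0.75 to 0.53. Both genes were therefore above control at number 1 and below it at numbers 2 and 3.

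Myog (ENSMUSG00000026459, chromosome 1, 134289989 to 134292548), the differentiation factor, had 37228, 1998 and 5737 scaled reads in the libraries labelled Islr knockout 1, 2 and 3. In the libraries labelled control 1, 2 and 3 it had 43370, 417.2 and 43261. Islr knockout 1, control 1 and control 3 were high, Islr knockout 2 and 3 were lower, and control 2 was the lowest of all. The 3 high libraries were also the 3 highest for Islr, at 256.7, 181.1 and 1579 scaled reads. A link between the levels of Islr and Myog was not tested. For Myog, the highest library exceeded the lowest by 104-fold. The libraries of number 1 were both high and those of number 2 both low, while those of number 3 parted, with a difference of -2.91 (log2) there against 2.26 at number 2 and -0.22 at number 1. The log2 fold change was -0.29 ± 2.27 (SE), with a 95% interval from -6.11 to 5.53 (limma, adjusted p = 1.0). In edgeR and in DESeq2 it was -0.95. With the replicate number as a block, the limma interval ran from -3.37 to 2.79. A change of several-fold in either direction was thus not detectable with these libraries. Without the block, the sign turned when Islr knockout 2 (0.66), control 1 (0.82) or control 3 (0.82) was left out. For 4 of the 5 lists of markers of other cells, the sums were highest in Islr knockout 2 and 3, where Myog was low, but not in control 2, where it was lowest. The sum of 4 Schwann cell markers came to 136.9, 515.7 and 441.9 scaled reads in Islr knockout 1, 2 and 3, against 154.4, 170.1 and 146.6 in control. For 6 immune markers it came to 96.97, 464.1 and 894.7, against 187.8, 143.3 and 294.9 in control, with Ptprc at 0 in 4 of the 6 libraries; the part of these cells in the level of Myog was not tested. The exception was the sum of 5 pericyte and smooth muscle markers, most of it Acta2, which came to 18840, 18531 and 14168, against 28144, 11862 and 36385 in control, and was lowest in control 2.

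Myf6 (ENSMUSG00000035923, chromosome 10, 107492853 to 107494737), a late factor, was the least abundant of the family per kilobase. It had 381.1, 16.61 and 96.25 scaled reads in the libraries labelled Islr knockout, against 167.8, 17.48 and 220.7 in control. Like Myog, it was lowest in both libraries of number 2. Myf6 and Myf5 are neighbours on the minus strand with 6718 bases between them, and both were lowest in Islr knockout 2. For Myf6 this is nearly a tie with control 2, at 16.61 against 17.48 scaled reads. Myf5 and Myf6 parted in control 2, where Myf5 was highest and Myf6 near its minimum. The other 5 libraries had the same order for both genes. The 95% interval of Myf6 ran from -3.31 to 3.26 (limma, adjusted p = 1.0). With the replicate number as a block it ran from -1.05 to 1.00. The log2 fold change of Myf6 was -0.03. Its sign turned with library size alone, in edgeR and in DESeq2, and without Islr knockout 2, control 1 or control 3.

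Among the Mef2 genes, Mef2c (ENSMUSG00000005583, chromosome 13, 83504034 to 83667080) followed Myog most closely. It had 9549, 257.4 and 828.6 scaled reads in the libraries labelled Islr knockout, against 4922, 81.57 and 2865 in control, a 117-fold span. It was above control at numbers 1 and 2, by 0.96 and 1.65 (log2), and below it at number 3, with a difference of -1.79. The 95% interval of Mef2c ran from -5.21 to 5.76 (limma, adjusted p = 1.0). With the replicate number as a block it ran from -1.67 to 2.21. Without the block, the log2 fold change was 0.27 ± 2.14 (SE). It became -1.18 without Islr knockout 1 and -1.56 without control 2.

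Mef2a (ENSMUSG00000030557, chromosome 7, 67231163 to 67372858) had the same order in a narrower span of 5.10-fold. Its levels were 13685, 3002 and 4347 scaled reads in the libraries labelled Islr knockout, against 9898, 2685 and 7684 in control. Mef2d (ENSMUSG00000001419, chromosome 3, 88142372 to 88172086) varied least of the family, with 4780, 2444 and 2292 against 3758, 2605 and 3062. Both were highest in Islr knockout 1 and both groups overlapped. The 95% intervals ran from -1.65 to 1.52 for Mef2a and from -0.81 to 0.70 for Mef2d (limma, adjusted p = 1.0 for both). With the replicate number as a block they ran from -0.65 to 0.52 and from -0.53 to 0.42. The spans of Mef2a and Mef2d overlap genes on the opposite strand, Lysmd4 and 1700113A16Rik. The span of Mef2a also overlaps Gm44667 and Gm44668 on the same strand. The strand handling is unknown here and overlap of exons was not examined, so reads of these genes may be mixed with those of Mef2a and Mef2d. Mef2b, the remaining gene of the family, was near the detection limit, with 1.141, 0 and 8.370 scaled reads against 4.444, 0 and 2.557.

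**Figure D2:**
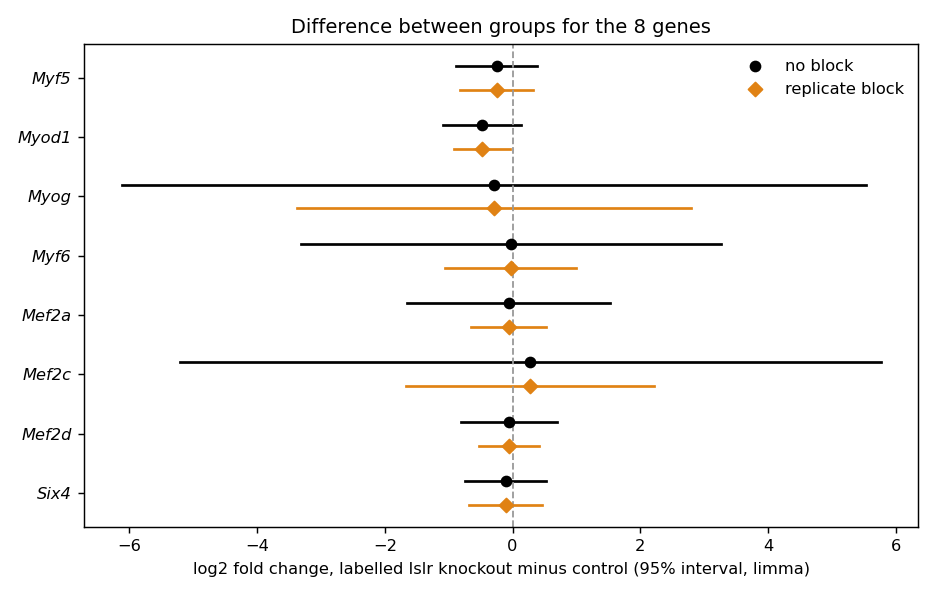
Log2 fold change of each gene, libraries labelled Islr knockout minus control, with 95% intervals from limma without a block (black) and with the replicate number as a block (orange). The interval of Myod1 with the block, from -0.92 to -0.04, is the only one that leaves out 0, and that of Myog without the block, from -6.11 to 5.53, is the widest.

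In the limma test, which took 20344 genes averaging 1 scaled read or more, 0 of the 8 genes passed an adjusted p of 0.05, as did 0% of all genes. An unadjusted p under 0.05 was found for 0 of the 8 genes and for 276 genes in all (1.36%). The count past the adjusted threshold was also 0 in edgeR (162 genes at an unadjusted p under 0.05) and in DESeq2 (318 genes). The median log2 fold change was -0.09 over the 8 genes and 0.03 over all genes tested. The groups did not overlap in 0 of the 8 genes, against 2.11% of all genes lower and 2.65% higher in the libraries labelled Islr knockout. In the authors' deposited table the log2 fold change was -0.49 for Myod1 (p = 0.127), -0.95 for Myog (p = 0.564) and 0.43 for Mef2c (p = 0.797), with an adjusted p of 1.0 for all 8 genes.

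The spread over libraries split the genes in a way that the groups did not. The SD of log2(scaled reads + 1) over the 6 libraries was 2.80 for Myog, 2.64 for Mef2c and 1.88 for Myf6, above 99.2%, 99.0% and 97.8% of the 10447 genes with a mean of at least 100 scaled reads. Mef2a, at 0.96, exceeded 92.5% of them. Mef2d (0.41), Myod1 (0.33), Myf5 (0.32) and Six4 (0.30) stood near the median gene, at 0.37. The sum of squares of Myog lay to 82.6% between replicate numbers and to 0.328% between the groups, and that of Mef2c to 90.2% and 0.317%. For Myod1 the order was the other way, with 23.4% between numbers and 62.5% between groups, while the median gene had 69.2% and 7.18%. There are more replicate numbers than groups, so the 2 kinds of share are not like for like. How many genes have as large a share between groups as Myod1 is not given here. Myf5 and Six4 had most of their small spread in the remainder, 76.3% and 81.9%, which is neither.

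Levels of different genes were compared per kilobase of exon, using the union of the exons of a gene in GENCODE M21. Averaged over the 6 libraries, Myog stood at 14717 ± 14255 scaled reads per kilobase (SD, n = 6) and Myod1 at 13841 ± 3223. These means do not part the genes, because Myog was above Myod1 in 3 libraries and below it in the other 3. Myod1 was above Myf5, at 842 ± 176, in all 6 libraries. Mef2d (527 ± 160) and Mef2a (469 ± 297) followed, each above the other in 3 libraries. Both were above Mef2c, at 196 ± 233, in all 6 libraries. This order rests on the length: with the longest transcript in place of the union, Mef2a was above Mef2d in all 6 libraries, and Mef2c was above Mef2d in Islr knockout 1 (1521 against 885) and control 1 (784 against 696). Myf6 (119 ± 110) and Six4 (94.2 ± 19.4) came last and did not differ beyond their spread.

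The make-up of the MyoD family changed with the library. Myog was 2.21, 0.101 and 0.378 times the level of Myod1 per kilobase in the libraries labelled Islr knockout 1, 2 and 3, and 2.23, 0.0154 and 1.68 times in control 1, 2 and 3. Myog thus made up 66.5%, 8.84% and 25.9% of the family sum in the libraries labelled Islr knockout, against 67.5%, 1.43% and 61.3% in control. Myf5 stayed a minor part, from 2.60% to 5.23% in the libraries labelled Islr knockout and from 1.82% to 5.54% in control. In the Mef2 family, Mef2c made up 26.0%, 2.60% and 7.15% of the sum against 19.3%, 0.833% and 15.0%. Mef2d made up 64.9% in Islr knockout 2 and 69.8% in control 2, where Mef2c was scarce. With the longest transcript as the length these shares were 43.7% and 49.2%, below those of Mef2a, at 52.3% and 49.5%.

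**Figure D3:**
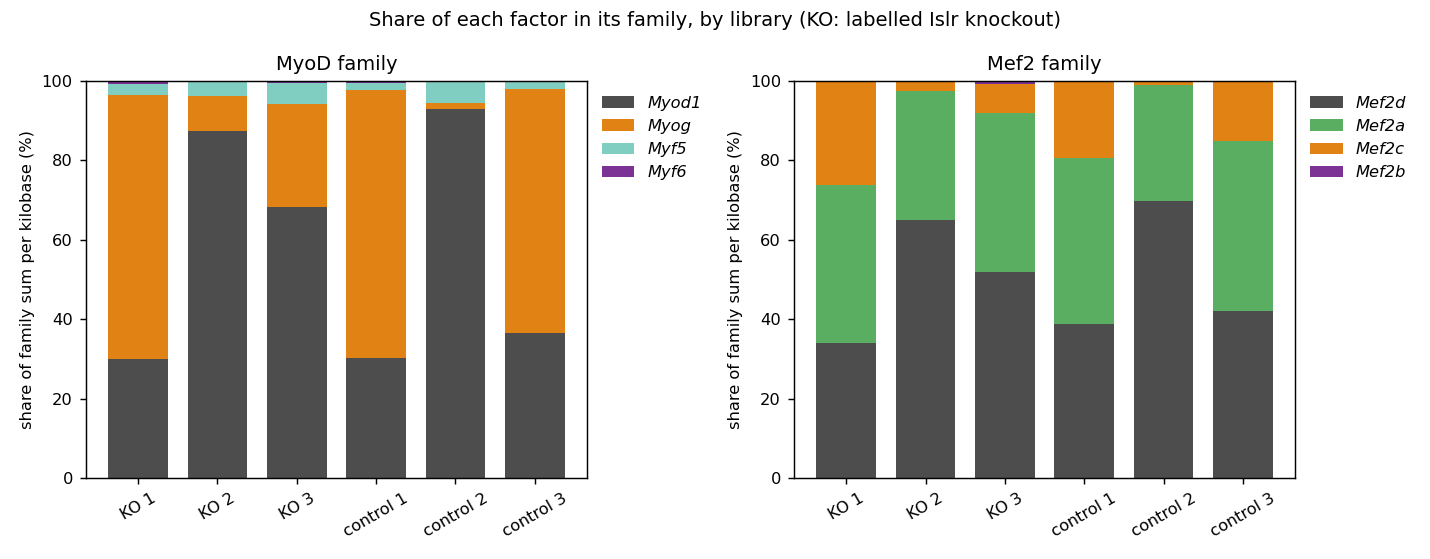
Share (%) of each gene in the per-kilobase sum of the MyoD family (left panel) and the Mef2 family (right panel), with 1 bar per library, those labelled Islr knockout (KO) left of control. Myog makes up 66.5%, 67.5% and 61.3% in KO 1, control 1 and control 3 and at most 25.9% in the other libraries.

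Differentiation genes known in muscle to be under the control of these factors were then read in the same libraries, from a list of 34 that includes sarcomere, fusion and acetylcholine receptor genes. In 32 of the 34 the 3 highest libraries were Islr knockout 1, control 1 and control 3. The same held for Myog, Myf6, all 3 Mef2 members and Islr itself. This order held in 10.3% of all genes tested and was looked for after the values of Myog were seen. The exceptions were Xirp1, an actin-binding repeat protein, and Cdkn1c, a cell cycle inhibitor, which was 5.85 above its own mean (log2) in control 3. Tnnc2, counted among the 32, was near the detection limit. It had the same centred value, -1.015 (log2), in Islr knockout 2, Islr knockout 3 and control 2. The lowest library was control 2 in 23 of the 34 genes, against 20.9% of all genes tested. Between the groups, 0 of the 34 passed in either direction, with a median log2 fold change of -0.16. By replicate number the median was -0.05, 1.05 and -1.95, so the list lay above control at number 2 and below it at number 3, like Myog. The smallest p among the 34 belonged to Cdh15, which encodes M-cadherin of muscle cell contacts, with 5727, 2679 and 3702 scaled reads in the libraries labelled Islr knockout against 5686, 3121 and 8839 in control (limma, unadjusted p = 0.281, adjusted p = 1.0). Smyd1, a muscle histone methyltransferase gene, came next with 6204, 676.3 and 1073 against 5514, 1196 and 3479.

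**Figure D4:**
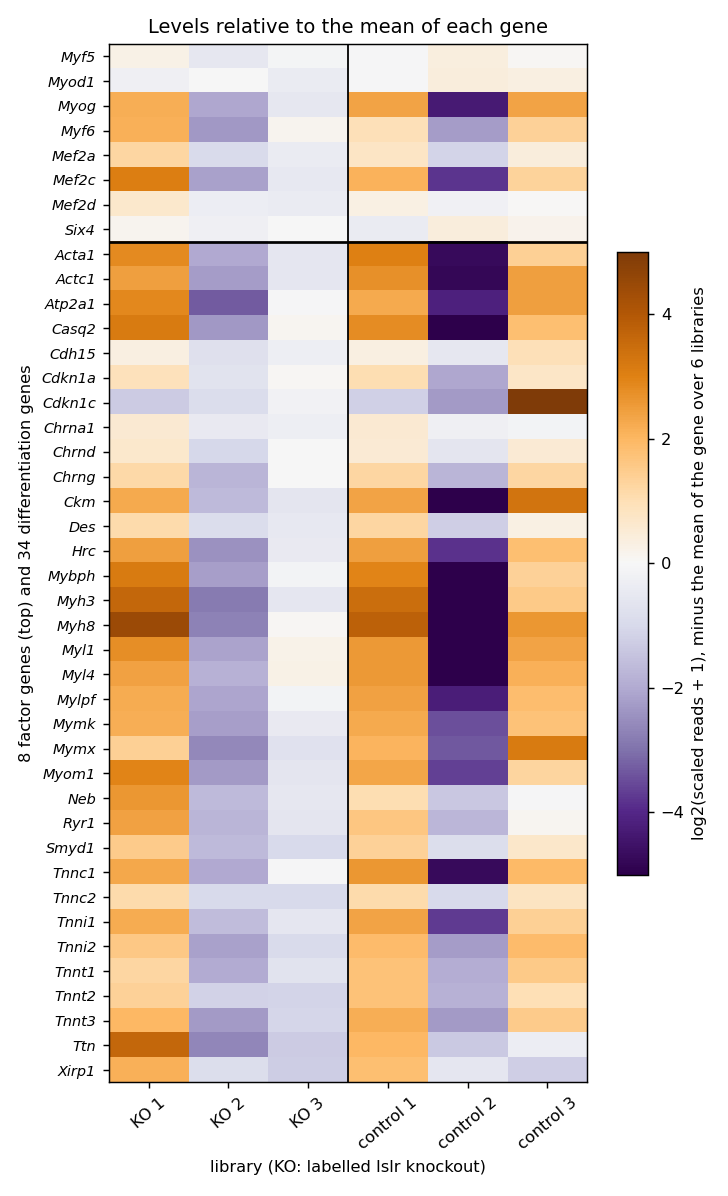
Log2(scaled reads + 1) minus the mean of each gene, for the 8 factor genes (above the line) and 34 differentiation genes (below it), with libraries labelled Islr knockout (KO) left of control; colours are capped at 5 in either direction. KO 1, control 1 and control 3 are the 3 highest libraries in 32 of the 34 differentiation genes, while Myod1, Myf5 and Six4 stay near their own means.

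The genes most like each factor were named by the smallest root mean square difference between centred log2 profiles over the 6 libraries, among genes with a mean of at least 100 scaled reads. For Myog these were Mylpf, a fast myosin light chain gene (0.268), Actc1, the cardiac actin gene also used in developing muscle (0.270), and Klhl41 (0.273). Mylpf had 48804, 2475 and 9649 scaled reads in the libraries labelled Islr knockout, against 55658, 568.7 and 38765 in control. For Mef2c they were the M-band genes Myom1 (0.139) and Myom3 (0.214) and the sodium channel gene Scn4a (0.239). For Myod1 they were Psmc3ip (0.052), Mrpl35 (0.080) and Coq6 (0.085), and for Myf5 they were Kbtbd7 (0.099), E130308A19Rik (0.105) and Arhgef2 (0.117). Within the 8 genes, Myog and Mef2c differed by 0.62 and Myf5 and Six4 by 0.19, while Myog and Myod1 differed by 2.66. The 12 genes named were the same with library-size scaling.

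Partners, inhibitors and coactivators of the factors were counted in the same fit, and 0 of 33 listed genes passed in either direction. The 3 E proteins, with which the MyoD family pairs, had a median log2 fold change of -0.14, and Tcf3 had 2569, 3281 and 2375 scaled reads in the libraries labelled Islr knockout against 2760, 4236 and 2720 in control. Of 19 inhibitors, 6 lay on the higher and 13 on the lower side, against 10789 and 9555 of all 20344 genes tested. The median of the 19 inhibitors was -0.12. Bhlhe40, a repressor of this protein class, had 1476, 1015 and 1065 against 1314, 347.3 and 661.4, and was higher at each number without passing (limma, unadjusted p = 0.110, adjusted p = 1.0). It was the only one of the 19 that was higher at each number, against 12.2% of all genes tested, while 4 were lower at each number, against 12.1%. Hey1, a Notch target and repressor, had 253.3, 150.4 and 82.02 against 216.6, 165.5 and 664.8.

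Of 11 coactivators, with a median of -0.03, the groups did not overlap in 1: Smarcd3, the chromatin subunit that assists Myod1, had 942.4, 832.2 and 734.0 scaled reads against 1171, 1005 and 965.6. Its log2 fold change was -0.33 ± 0.24 (SE; limma, unadjusted p = 0.199, adjusted p = 1.0), and such a lack of overlap was found in 2.11% of all genes tested. Vgll2, a muscle cofactor of the Tead proteins, had 1660, 763.0 and 392.5 against 1681, 929.9 and 1132.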

How the data were processed

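Libraries were made from total RNA per the labels' protocols. The submitters' processing notes list HISAT2 2.0.5, edgeR 3.18.1, DESeq2 1.16.1, HTSeq and Trimmomatic without their roles; the sources used here do not give the annotation or the strand handling. The deposited table holds a signal per gene and library, gene counts divided by 1 size factor (0.8581 to 1.1948). Taking the smallest step of each column as 1 read, 100.0% of values were whole reads within 0.01, and all 480 genes shared with the deposited raw count table had equal counts. The same deposited table gives p-values and a log2 fold change from the authors' own comparison. The 36 broken lines were dropped, and 12 further per-sample columns stayed unused.

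Groups were taken from the sample titles. The test was limma 3.58.1 (trend and robust) on log2(scaled reads + 1) for genes averaging 1 scaled read or more. It was two-sided, Benjamini-Hochberg adjusted over all genes tested, with a threshold of 0.05. The step was tested on simulated data that had no differences between replicate numbers. That simulation therefore does not show how the test behaves with the spread of these libraries. Fold changes on this scale understate changes of low genes. Alternatives were edgeR 4.0.16 and DESeq2 1.42.0 on the recovered reads, a replicate block, other scalings and filters, pseudocounts of 0.5 and 0.1, and leaving out libraries. Replicate numbers occur in both groups. Deviations from the group means of same-numbered libraries correlated at 0.689, 0.633 and 0.625 over 14280 genes averaging 10 or more. The numbers were taken to pair the libraries for the differences at each number and for the replicate block. The labels do not say what the numbers mark, so the main fit had no block, and its intervals do not use the pairing. Of 27093 Ensembl genes, 27065 were found in GENCODE M21 (GRCm38), and the 8 members have equal spans there. The members, the lists and the rule for named genes (the members, Mef2b, Islr, the 3 profiles most like each of Myf5, Myod1, Myog and Mef2c, and per list the genes with the smallest p) were chosen with earlier results of these data known; a further list, of upstream genes, is not reported here. Depth limits low genes such as Mef2b, and also Myf6 at number 2, with 16.61 scaled reads in Islr knockout 2 and 17.48 in control 2. The part of counting error in the other genes was not tested.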

Additional observations from a re-analysis of the deposited data

How the results depend on the processing

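In all 21 alternative fits, 0 of the 8 genes passed an adjusted p of 0.05, and Myod1 kept its negative sign (adjusted p from 0.548 to 1.0). The count over all genes was 0 in each fit except DESeq2 with the replicate block, which called 13; no other call changed with the block. Myog, at -0.29, was -0.95 in edgeR and in DESeq2, and -0.29 and -0.27 there with the replicate block. Log2 fold changes near 0 turned sign: Myf6 to 0.02 with library size alone, and in edgeR to 0.28 for Myf6, 0.06 for Mef2a and 0.02 for Mef2d, and in DESeq2 to 0.28, 0.05 and 0.01. The cause was not tested. Leaving out 1 library, without a block, gave ranges of -0.63 to -0.39 for Myod1, -0.43 to -0.05 for Myf5, -0.35 to 0.06 for Six4, -2.52 to 0.82 for Myog, -1.16 to 1.12 for Myf6, -0.70 to 0.39 for Mef2a, -1.56 to 1.42 for Mef2c and -0.39 to 0.14 for Mef2d. Leaving out both libraries of a number, with the replicate block, gave -0.61 to -0.34 for Myod1, -0.53 to 0.08 for Myf5, -0.44 to 0.16 for Six4, -1.57 to 1.02 for Myog, -0.63 to 0.55 for Myf6, -0.33 to 0.31 for Mef2a, -0.42 to 1.30 for Mef2c (-0.07 without number 1) and -0.25 to 0.13 for Mef2d. Without number 3, Mef2c had an unadjusted p of 0.0036 (limma, adjusted p = 1.0). With the longest transcript as the length, levels per kilobase were 1243 for Mef2a, 491 for Mef2c and 150 for Six4, and with the deposited length, added after the data were seen, 228 for Mef2d. With 3 libraries a group, wide spreads such as that of Myog hide changes of several-fold.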

Other observations

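The gene length in the deposited table differs from the union of the exons in nearly all genes with several transcripts, and equals it in 10 of 16442. Mef2c is listed with 68408 bases, which is the sum of the exon lengths of its 31 transcripts in GENCODE M21, while the union of its exons covers 15715 bases. Mef2a is listed with 33730 bases over 12 transcripts, against a union of 14681, and Mef2d with 13858 bases over 7 transcripts, against 5985. Myf5, Myod1, Myog and Myf6 have 1 transcript each, and there the deposited length and the union are equal. Over all 16442 genes with 2 or more transcripts the deposited length equalled the sum over transcripts in 99.1% and was a median of 1.90 times the union. A level per kilobase from the deposited length therefore sets Mef2 genes lower against the MyoD family than one from the union: Mef2c averages 45.1 scaled reads per kilobase in place of 196, and Mef2a 204 in place of 469. Comparisons of a gene between libraries use the same length in each and keep their fold change.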
